A study of Mus musculus with 12 samples.

Results

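The genes described here encode the nuclear subunits of the mitochondrial oxidative phosphorylation system. They were found by symbol in the array annotation: genes named Nduf with a letter and number belong to complex I, Sdha to Sdhd to complex II, Uqcr genes and Cyc1 to complex III, Cycs is cytochrome c, Cox4 to Cox8 genes belong to complex IV, and Atp5 genes to complex V. The rule found 82 genes among the 18194 genes on the array that have a probe set with 1 symbol, each read through its brightest probe set. Of these, 77 passed the filter on low signals and were tested among 10583 genes. Cox4i2, Cox7a1, Cox7b2, Cox8b and Ndufb4 lay below it. The rule goes by symbol and uses no measured value, but the gene set was proposed with earlier results of these data known.

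The study measured RNA of mouse blood cells on 12 one-colour Affymetrix arrays, in 4 groups of 3: knockout plus, knockout minus, control plus and control minus. Knockout cells came from mice that lack Stat5a and Stat5b, a pair of related transcription factors that cytokine receptors activate, and control cells from mice that have them. Plus and minus are the signs at the end of the array titles, which the protocols describe as treated with CMP or without it. What CMP stands for is not given in the labels, and in 2 of the 3 forms of title the letters stand on plus and minus arrays alike, so plus and minus are used here as labels only. Strain, age, how the genes were removed, and whether the arrays of a group are separate animals are not given in the sources used here. The p-values therefore measure a spread between these arrays that may be technical. It is the spread left after differences between sets of arrays, described below, are taken out, and the fit moderates it across genes.

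Oxidative phosphorylation turns the energy of food into ATP at the inner mitochondrial membrane. Complex I takes electrons from NADH and complex II from succinate, ubiquinone carries them to complex III, cytochrome c carries them on to complex IV, and complex IV passes them to oxygen. Complexes I, III and IV pump protons across the membrane, and complex V lets them flow back and makes ATP. Complex II is made of nuclear subunits alone, whereas each of the other complexes also holds subunits encoded by mitochondrial DNA. Erythroid precursors are rich in mitochondria, and red cells lose theirs as they mature.

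Promoters of these genes often hold sites for NRF1, for GABP of the ETS family and for YY1, factors known for driving nuclear genes of mitochondria. The RefSeq promoter windows of assembly GRCm38.p6, from 250 bases before to 50 after a gene's start, covered 67 of the 82 genes with 72 windows. Of these 72 windows, 13.9% held the NRF1 letters GCATGCGC, against 2.71% of all 32851 windows. The ETS letters CCGGAAG were in 23.6% of them, against 8.86% of all windows, and the YY1 letters AAGATGGCG in 8.33%, against 1.4%. At least 1 of these 3 motifs was in 37.5% of the subunit windows, against 12.1% of all. The letters TTCNNNGAA, which STAT proteins can bind, were in 8.33% of the subunit windows and in 8.3% of all windows. Both strands were searched, and a window was counted once for a motif however many copies it held. The match of letters describes the sequence and was not tested as a binding site.

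The windows below illustrate the 3 motifs in genes called lower in controls, cytochrome c among them, and 1 window without them. Capitals mark the motifs named above on either strand. Uqcr11 held the ETS and the NRF1 letters, Ndufs7 the YY1 letters, and Cycs the NRF1 letters, while Ndufb1 held none of the 3 motifs in this window. The windows shown do not represent the set: of the 40 windows of genes called lower in controls, 17 held at least 1 of the 3 motifs, beside 27 of all 72 subunit windows.
Uqcr11 (chr10:80406772-80407071, minus strand): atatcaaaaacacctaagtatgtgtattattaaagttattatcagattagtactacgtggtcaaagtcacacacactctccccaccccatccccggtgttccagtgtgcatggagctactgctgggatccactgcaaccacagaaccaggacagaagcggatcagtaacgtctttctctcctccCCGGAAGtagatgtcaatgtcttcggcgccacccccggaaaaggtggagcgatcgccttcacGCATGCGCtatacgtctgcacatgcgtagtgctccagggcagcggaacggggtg
Ndufs7 (chr10:80249199-80249498, plus strand): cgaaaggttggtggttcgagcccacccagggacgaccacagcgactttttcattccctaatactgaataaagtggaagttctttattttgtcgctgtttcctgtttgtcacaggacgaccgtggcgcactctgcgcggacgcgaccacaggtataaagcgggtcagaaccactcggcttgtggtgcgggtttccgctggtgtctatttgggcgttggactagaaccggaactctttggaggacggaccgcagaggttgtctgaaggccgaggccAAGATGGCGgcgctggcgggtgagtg
Cycs (chr6:50566520-50566819, minus strand): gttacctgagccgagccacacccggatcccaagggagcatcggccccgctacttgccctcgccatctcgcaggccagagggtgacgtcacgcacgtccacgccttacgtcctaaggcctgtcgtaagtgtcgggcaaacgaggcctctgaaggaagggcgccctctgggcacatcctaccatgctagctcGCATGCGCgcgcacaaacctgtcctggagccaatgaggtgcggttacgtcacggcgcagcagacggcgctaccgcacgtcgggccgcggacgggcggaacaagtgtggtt
Ndufb1 (chr12:101975689-101975988, minus strand): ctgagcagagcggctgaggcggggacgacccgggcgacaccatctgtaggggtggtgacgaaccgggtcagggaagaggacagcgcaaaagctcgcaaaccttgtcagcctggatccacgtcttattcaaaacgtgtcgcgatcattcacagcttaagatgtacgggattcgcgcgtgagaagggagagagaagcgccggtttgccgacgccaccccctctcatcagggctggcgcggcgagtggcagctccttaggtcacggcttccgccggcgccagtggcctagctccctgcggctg

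By the form of their titles the arrays divide into naming sets A, B and C, 3 in number, each with 1 array of every group. All lists of 3 signals below run in the order A, B, C. Set B stood apart: its highest signals were 59691 to 126575, against 19105 to 26874 in the other sets. The log2 ratio of beta-actin's 3' to 5' probe sets, a sign of RNA quality, was 4.30 to 5.78 in set B and 0.25 to 2.14 in the others. For Gapdh this ratio separated set B less, at 4.72 to 6.09, against 1.58 to 4.56 in set A and 1.10 to 2.07 in set C. Residuals of arrays of the same set correlated at 0.41 to 0.77 across genes, and the set was a block in the fit. Of the set B arrays, the knockout plus array has a source label that starts with a different number, and the knockout minus array has a protocol that calls it a control although its title marks a knockout. The best-measured Stat5a probe set read 28.9 to 90.1 in the 6 knockout arrays, against 659.7 to 1436 in the 6 controls. All 12 arrays thus followed the genotype in their titles, and the plus and minus signs were not checked this way. Markers of several blood cell types were above the filter: 13 of 13 on the array for neutrophils, 11 of 11 for stem and progenitor cells and 8 of 8 for megakaryocytes. Erythroid markers were for 11 of 14, those of monocytes and macrophages for 7 of 9, and those of mast cells and basophils and of dendritic cells for 7 of 10 each. Those of B cells were for 2 of 7, of T and NK cells for 3 of 9 and of eosinophils for 1 of 6.

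In controls, the subunit genes were lower in plus arrays than in minus arrays across all 5 complexes. Of the 77 genes tested, 41 fell and 2 rose at an adjusted p under 0.05 (limma, Benjamini-Hochberg over all genes tested), which is 53.2% lower and 2.60% higher. Over all 10583 genes, 11.6% were called lower and 10.6% higher. The median log2 change of the subunit genes was -0.62, against -0.02 for all genes tested, and it was -0.52, -0.65 and -0.57 within sets A, B and C. Each of the 41 genes was lower in all 3 sets, and 9 of them fell by more than 1 on the log2 scale. The same arrays chose these genes, so the agreement of the sets is no separate support. It was not counted for all genes called lower. Changes are differences of log2(signal + 32), which understates the change of dim probe sets, and their errors are standard errors of the fit with 3 arrays a group. Whether changes of the brightest probe sets are understated too was not tested. In bulk RNA, fewer cells of a type and less RNA per cell cannot be told apart.

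Complex I, the NADH dehydrogenase, had 20 of 33 tested genes called lower, 1 higher and 12 not called, with a median log2 change of -0.59. Of the 6 nuclear core subunits tested, most of which carry flavin or iron-sulfur centres, Ndufs1, Ndufs3, Ndufs7 and Ndufv1 fell, while Ndufs8 and Ndufv2 did not pass. Among the other 27 subunits 16 fell. Ndufs7, a core iron-sulfur subunit near the ubiquinone site, had signals of 3521, 6271 and 2337 in control plus arrays, against 5064, 12931 and 4164 in control minus arrays. Every plus array was below the minus array of its set, though the pooled groups overlap through set B. The log2 change was -0.80 ± 0.17 (adjusted p = 0.00685, limma).

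The largest fall under complex I was that of Ndufa4, a subunit first assigned to complex I and now placed with complex IV. Its signals were 732, 1046 and 1643 in control plus arrays, against 3384, 2233 and 3439 in control minus arrays, with no overlap, and the log2 change was -1.43 ± 0.34 (adjusted p = 0.0120, limma). Ndufb2, an accessory subunit of the membrane arm, read 1173, 775 and 1185 in control plus and 2333, 2846 and 2168 in control minus arrays, a log2 change of -1.22 ± 0.32. Its plus arrays all lay below its minus arrays. Ndufc1, another accessory subunit of that arm, changed by -1.08 ± 0.34.

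Ndufb1, also an accessory subunit of the membrane arm, went the other way. It read 572, 776 and 446 in control plus arrays, against 182, 329 and 165 in control minus arrays. The lowest plus array lay above the highest minus array. The log2 change was 1.31 ± 0.20 (adjusted p = 0.00135, limma), and Ndufb1 was the single complex I gene called higher.

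Complex II, succinate dehydrogenase, takes part in both the respiratory chain and the tricarboxylic acid cycle. Of its 4 genes, Sdha, the flavoprotein, Sdhb, the iron-sulfur subunit, and Sdhd, a membrane anchor, fell, with log2 changes of -0.71 ± 0.16, -0.73 ± 0.19 and -0.68 ± 0.22. Sdha read 6442, 3573 and 7417 in control plus and 9309, 7665 and 10457 in control minus arrays, without overlap. Sdhc, the other anchor, did not pass at -0.77 ± 0.29 (adjusted p = 0.0798, limma), with changes of -1.42 and -0.90 in sets A and C and of 0.013 in set B.

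Complex III, the cytochrome bc1 complex, was uneven, with 3 of 9 genes called lower. These were Uqcr11, a small accessory subunit, and the catalytic pair Cyc1, cytochrome c1, and Uqcrfs1, the Rieske iron-sulfur protein. Uqcr11 had the smallest p of all subunit genes: it read 575, 1163 and 544 in control plus arrays, against 1709, 4139 and 1629.7 in control minus arrays, a log2 change of -1.62 ± 0.23 (adjusted p = 0.000950, limma). All plus arrays lay below all minus arrays. Cyc1 changed by -0.90 ± 0.24 and Uqcrfs1 by -0.47 ± 0.14. The core proteins Uqcrc1 and Uqcrc2, at -0.89 ± 0.35 and -0.04 ± 0.17, were not called, nor were Uqcr10, Uqcrb, Uqcrh and Uqcrq.

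Cycs encodes cytochrome c, the mobile carrier between complexes III and IV that also triggers apoptosis when it leaves the mitochondrion. It read 5121, 8994 and 5516 in control plus arrays, against 7553, 17691 and 6976 in control minus arrays. Within each set the plus array was lower, while the pooled groups overlap because both set B arrays were bright. The log2 change was -0.62 ± 0.19 (adjusted p = 0.0374, limma).

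Complex IV, cytochrome c oxidase, had 6 of 13 tested genes called lower and 1 higher, with a median log2 change of -0.60. Cox7c, a small membrane subunit, had the largest fall of all subunit genes. It read 318, 123 and 288 in control plus arrays, against 829, 1215 and 733 in control minus arrays, a log2 change of -1.85 ± 0.34 (adjusted p = 0.00309, limma). The groups did not overlap, and the change was -3.00 in set B against -1.30 and -1.26 in sets A and C.

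Several complex IV subunits come in tissue forms, and the array measured pairs of them. Cox6b2, known as the testis form of a subunit that faces the intermembrane space, read 85.7, 121 and 93.2 in control plus arrays, against 282, 621 and 281 in control minus arrays, a log2 change of -1.61 ± 0.24 (adjusted p = 0.00107, limma). Its ubiquitous partner Cox6b1 changed by -0.60 ± 0.12 and was called lower as well. The Cox6b2 groups did not overlap, and Cox6b1 was lower in the plus array of each set. Cox6a2, known as the heart and skeletal muscle form, rose: it read 664, 479 and 388 in control plus arrays, against 112, 342 and 135 in control minus arrays, a log2 change of 1.35 ± 0.40 (adjusted p = 0.0305, limma). Its ubiquitous partner Cox6a1 was not called, at -0.34 ± 0.13. A second Cox6a2 probe set changed by 1.63, and a second Cox6a1 probe set by -0.67.

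The remaining paralog sets of complex IV were those of subunits 7a, 8 and 4. Cox7a2 fell by 0.71 on the log2 scale, while Cox7a2l, which helps respiratory complexes assemble into supercomplexes, changed by 0.08 ± 0.12 and was not called. The muscle form Cox7a1 was below the filter, with signals of 14.9 to 53.6 in control plus and 19.2 to 70.3 in control minus arrays. Cox8a and the testis form Cox8c were not called, at -0.73 ± 0.30 and -0.20 ± 0.23, and the muscle form Cox8b was below the filter. Cox4i1, the ubiquitous subunit 4, changed by -0.20 ± 0.13 and was not called, and Cox4i2, known from lung, was below the filter.

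Complex V, the ATP synthase, had 8 of 17 genes called lower and none higher, with a median log2 change of -0.63. The c ring of its membrane rotor is made of identical mature proteins from Atp5g1, Atp5g2 and Atp5g3. Atp5g1 read 662, 696 and 538 in control plus arrays, against 1298, 2015 and 1315 in control minus arrays, a log2 change of -1.22 ± 0.25 (adjusted p = 0.00590, limma). Atp5g2 read 564, 804 and 1153 in control plus arrays, against 1153, 2102 and 2461 in control minus arrays, a change of -1.14 ± 0.33. Atp5g1 groups did not overlap, while the highest Atp5g2 plus array and its lowest minus array had almost the same signal. The third gene, Atp5g3, changed by -0.20 ± 0.14 and was not called, with changes of -0.01, -0.53 and -0.06 in sets A, B and C.

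In the catalytic F1 head and its central stalk, 2 of 5 genes fell, Atp5d and Atp5e, the delta and epsilon subunits of the stalk. Atp5e read 591, 819.8 and 795 in control plus arrays, against 1310.4, 1749.6 and 1912 in control minus arrays, without overlap, a log2 change of -1.14 ± 0.29. The alpha and beta subunits Atp5a1 and Atp5b, at -0.21 ± 0.13 and -0.63 ± 0.27, were not called. In sets A, B and C, Atp5a1 changed by -0.12, -0.46 and -0.05 and Atp5b by -0.04, -1.47 and -0.37. Atp5k, subunit e of the membrane part, had the smallest p of the complex, at -0.86 ± 0.16 (adjusted p = 0.00358, limma).

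**Figure D1:**
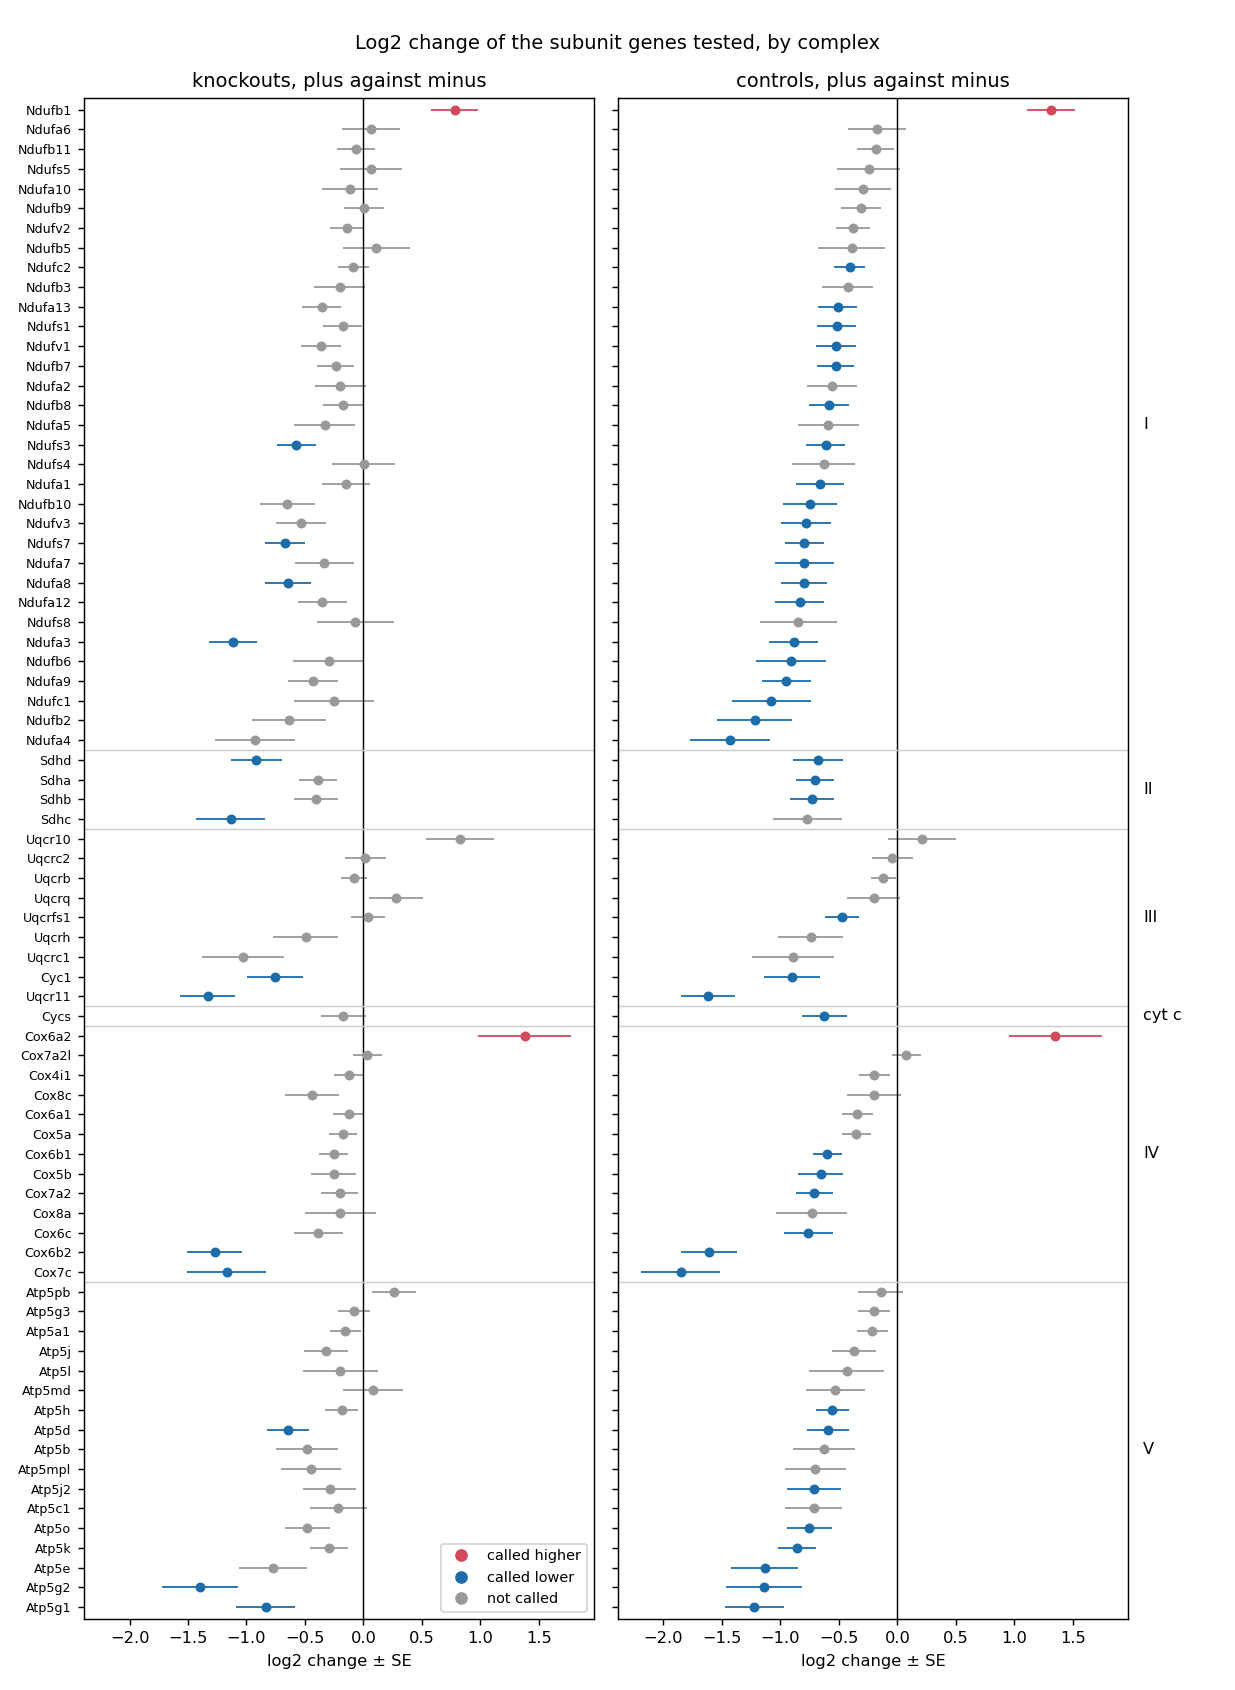
Log2 change (plus over minus, x axis, ± SE of the fit, 3 arrays a group) of the 77 subunit genes tested, grouped by complex and ordered by their change in controls, in knockouts on the left and in controls on the right. Blue marks genes called lower (13 in knockouts, 41 in controls), red genes called higher (Ndufb1 and Cox6a2 in both genotypes) and grey genes not called.

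The count of calls in controls depended on the block for the naming set and on sets A and C. Without the block 2 genes were called, both lower (2.6% of the subunit genes, against 1.8% of all genes). With set A left out 13 were called, 15.6% lower against 4.79% of all genes, and with set C left out 4, 3.9% lower against 2.26%. Without set B the count was 53, with 66.2% lower against 16% of all genes. Leaving out a single control array gave 14 to 27 calls. No called gene changed sign under any of these settings, which reuse the arrays that chose the genes.

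In knockouts, fewer subunit genes passed the test in the same comparison. Of 77, 13 fell and 2 rose, which is 16.9% lower and 2.60% higher, against 9.72% and 9.03% of all genes tested. The median log2 change was -0.25, against -0.06 for all genes. Set B differed from the others: the medians of sets A, B and C were -0.46, 0.0017 and -0.37, and 66, 38 and 72 of the 77 genes were lower in these sets. In controls, these counts were 69, 71 and 73. Such counts by set were not made over all genes, whose medians in sets A, B and C were -0.0051, -0.11 and -0.029 in knockouts. The count of calls in knockouts moved in both directions with the arrays used. With set B left out, 36 genes were called lower and 3 higher (46.8% lower, against 13.1% of all genes), and with the knockout plus array of set B alone left out, 27 lower and 1 higher (35.1% lower, against 8.95%). With set A left out 2 genes were called lower (2.6%, against 3.15% of all genes) and with set C left out 1 (1.3%, against 1.37%), both near the share of all genes. Leaving out any other single knockout array gave 4 to 9 calls, and without the block 0 were called (limma), with 9 at an unadjusted p under 0.05.

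By complex, 4 genes of complex I, 2 of complex II, 2 of complex III, 2 of complex IV and 3 of complex V fell in knockouts, and Cycs was not called at -0.17 ± 0.19. Uqcr11 read 555, 2759 and 607 in knockout plus arrays, against 1836, 4776 and 1832 in knockout minus arrays, a log2 change of -1.33 ± 0.23 (adjusted p = 0.00324, limma). Every plus array lay below its partner, and the groups overlap only through set B. Cox6b2 read 106, 165 and 114 in knockout plus and 317, 391 and 346 in knockout minus arrays, a change of -1.27 ± 0.24, without overlap. Cox7c read 409, 396 and 232 in knockout plus and 748, 999 and 671 in knockout minus arrays, a change of -1.17 ± 0.34, again without overlap.

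Ndufa3, an accessory subunit of complex I, read 3438, 2176 and 5733 in knockout plus arrays, against 8465, 5819 and 9013 in knockout minus arrays, a log2 change of -1.12 ± 0.21 (adjusted p = 0.00423, limma). All plus arrays lay below all minus arrays. Ndufs7, Ndufs3 and Ndufa8 were the other complex I genes called lower, at -0.67 ± 0.17, -0.57 ± 0.17 and -0.65 ± 0.19. Ndufa4, the complex I gene with the largest fall in controls, read 1080.2, 2822 and 1867 in knockout plus and 4146, 2535 and 3851 in knockout minus arrays and did not pass (adjusted p = 0.0776, limma). It was lower in sets A and C and higher in set B.

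Both membrane anchors of complex II fell in knockouts. Sdhc read 1703, 292 and 1032 in knockout plus arrays, against 3593, 917 and 1813 in knockout minus arrays, a log2 change of -1.14 ± 0.29 (adjusted p = 0.0204, limma). Sdhd read 2804, 509 and 3534 in knockout plus and 5198, 1256 and 5411 in knockout minus arrays, a change of -0.91 ± 0.22. Set B was the dimmest set for both genes in both groups, and its plus array was lower than its minus array. In complex V, Atp5g2 changed by -1.40 ± 0.33, Atp5g1 by -0.84 ± 0.25 and Atp5d by -0.64 ± 0.18, and in complex III Cyc1 changed by -0.76 ± 0.24. Uqcr10, a small subunit of complex III, was higher in all 3 sets but did not pass, at 0.82 ± 0.29 (adjusted p = 0.0678, limma).

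The pair of genes that rose in controls rose in knockouts too. Ndufb1 read 494, 832 and 407 in knockout plus arrays, against 278, 521 and 197 in knockout minus arrays, a log2 change of 0.78 ± 0.20 (adjusted p = 0.0213, limma). Cox6a2 read 1172, 1699.5 and 624 in knockout plus and 288, 1156 and 173 in knockout minus arrays, a change of 1.38 ± 0.40 (adjusted p = 0.0318, limma). For both genes each plus array lay above the minus array of its set, and set B was the brightest.

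Of the 13 genes called lower in knockouts, 12 were also called lower in controls, which is 92.3% of the knockout list and 29.3% of the control list. The remaining gene was Sdhc. The same overlap was not counted over all genes tested. Of the 41 genes called lower in controls, 40 had a negative change in knockouts, and Uqcrfs1 did not: it read 4641, 4504 and 4082 in knockout plus and 4098, 4545 and 4218 in knockout minus arrays, against 4194, 3468 and 3292 in control plus and 5327, 4806 and 5042 in control minus arrays. Among all 77 subunit genes, 63 were negative in knockouts, and among all 10583 genes 5758 were. How many of all 1225 genes called lower in controls were negative in knockouts was not counted, so 40 of 41 has no like share beside it. The comparisons use separate arrays but share the naming sets, and a call in 1 genotype and not in the other is no test of a difference.

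**Figure D2:**
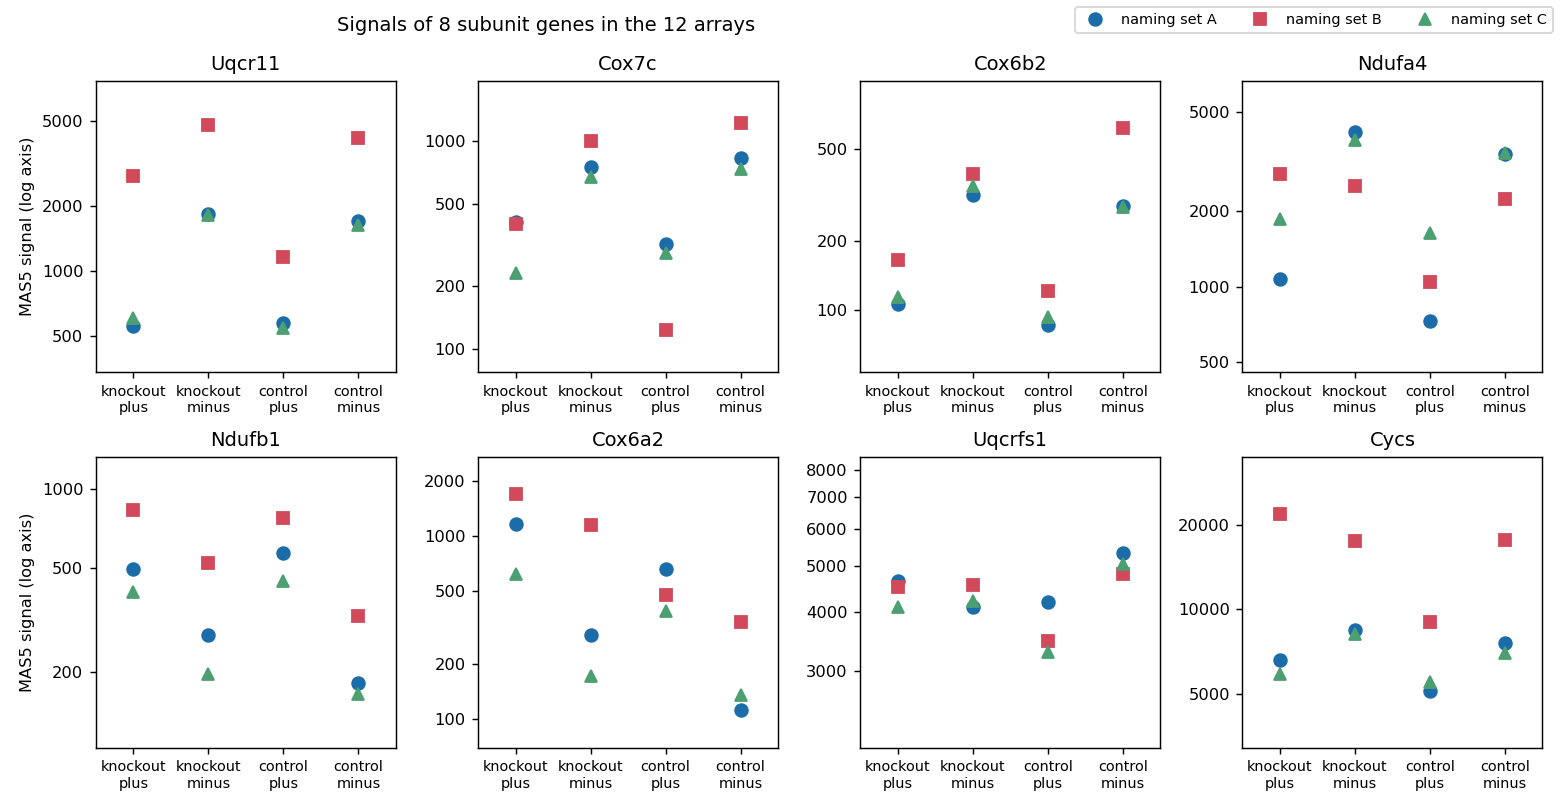
MAS5 signal (log axis) of 8 subunit genes in the 12 arrays, with knockout plus, knockout minus, control plus and control minus from left to right and a marker for each naming set. Uqcr11, Cox7c and Cox6b2 are lower in every plus array than in the minus array of its set and genotype, and Ndufb1 and Cox6a2 are higher. Uqcrfs1 is lowest in the control plus arrays of sets B and C.

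The direct test of the genotype difference found no subunit gene called: 0 of 77 at an adjusted p under 0.05 (limma), against 0% of all 10583 genes. At an unadjusted p under 0.05 (limma) were 3 subunit genes, beside 223 of all 10583 genes. These 3 were Uqcrfs1, Atp5k and Cox7a2, with differences (knockout change minus control change, log2) of 0.51 ± 0.20, 0.56 ± 0.23 and 0.51 ± 0.22 and an adjusted p of 0.954 each. Uqcrfs1 differed by 0.52, 0.45 and 0.56 in sets A, B and C. The median difference over the subunit genes was 0.29, against -0.02 for all genes, and came to 0.07, 0.70 and 0.11 in the 3 sets. The median standard error of a gene's difference was 0.30.

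In plus arrays, knockouts were set against controls directly. No subunit gene was called (0 of 77 by limma, against 0.0189% of all genes), 23 had an unadjusted p under 0.05, beside 1038 of all 10583 genes, and the smallest adjusted p was 0.507. The 23 became 5 without the knockout plus array of set B and 4 without the control plus array of set B. The signals were nonetheless mostly higher in knockouts: 70 of 77 log2 differences were positive, beside 4806 of all 10583 genes. The median was 0.28, against -0.04 over all genes. Of the 70, 41 were positive in all 3 sets, which was not counted over all genes. In sets A, B and C the median difference came to 0.12, 0.62 and 0.13, and 55, 68 and 64 subunit genes were higher. Over all genes these medians were 0.012, -0.14 and 0.0060, and the genes higher in each set were not counted. Complex IV had a median of 0.33, complex V of 0.33, complex III of 0.28, complex I of 0.27 and complex II of 0.14.

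Uqcrq, a ubiquinone-binding subunit of complex III, had the smallest p in this comparison. It read 1857, 4696 and 2257 in knockout plus arrays, against 1345, 1735 and 1789.5 in control plus arrays, a log2 difference of 0.74 ± 0.23. Its dimmer probe sets above the filter went the other way, at -0.39 and -0.07. Ndufa9, a complex I accessory subunit, read 4182, 3013 and 4698 in knockout plus and 3558, 1075 and 3741 in control plus arrays, a difference of 0.67 ± 0.21. Cycs read 6569, 21976 and 5892 in knockout plus and 5121, 8994 and 5516 in control plus arrays, a difference of 0.58 ± 0.19. Dimmer Cycs probe sets above the filter differed by 0.31 and 0.60. In the probe sets used for these 3 genes, each knockout array was above the control array of its set, by most in set B. None of the 3 genes passed the adjusted test.

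In minus arrays, knockouts and controls were close. No subunit gene was called (0 of 77 by limma, against 0.0189% of all genes). An unadjusted p under 0.05 (limma) was found for 2 subunit genes, beside 250 of all 10583 genes. The median log2 difference was 0.03, against -0.01 for all genes. The quartiles were -0.03 and 0.14, against -0.16 and 0.13 for all genes. For 76 of 77 subunit genes the difference was within 0.5 on the log2 scale, a count not made over all genes. The exception was Cox6a2, which read 288, 1156 and 173 in knockout minus arrays, against 112, 342 and 135 in control minus arrays, a difference of 1.04 ± 0.40, and did not pass the adjusted test (limma). Ndufb1 was the other gene at an unadjusted p under 0.05, at 0.46 ± 0.20. The plus and minus comparisons use the same arrays as the comparisons within each genotype.

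**Figure D3:**
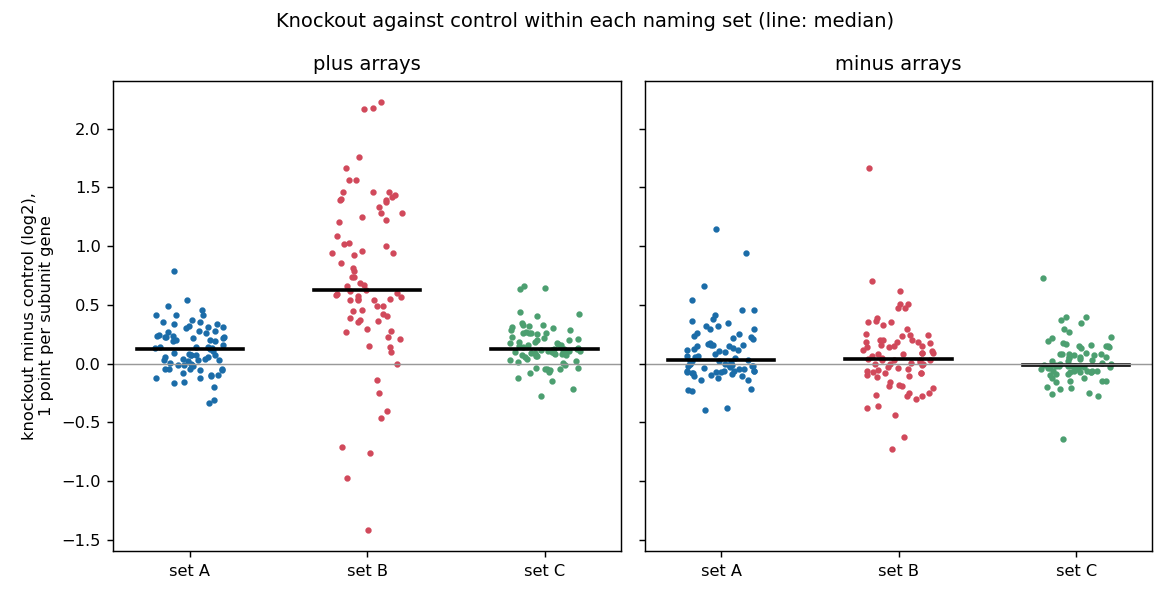
Knockout minus control difference (log2, y axis) of the 77 subunit genes within each naming set, in plus arrays on the left and minus arrays on the right. Each point is a gene and the line is the median, which is 0.12, 0.62 and 0.13 in the plus arrays of sets A, B and C and is 0.034, 0.037 and -0.015 in the minus arrays.

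Array by array, complex II stood apart from the other complexes in set B. The median deviation of the complex I genes from their 12-array mean (log2) was -0.40, 0.92 and -0.46 in knockout plus arrays and -0.00073, 0.63 and -0.064 in knockout minus arrays. It was -0.59, 0.13 and -0.57 in control plus arrays and -0.082, 0.63 and -0.027 in control minus arrays. Complex II lay at -1.18 and -0.21 in the knockout plus and minus arrays of set B and at -0.81 and -0.27 in the control plus and minus arrays, below its own level in sets A and C. For complex I the knockout plus array of set B was the highest of the 12 arrays, above its own minus array, whereas for complex II it was the lowest. The complex II value is a median of 4 genes. Sdhb went the other way in knockout plus arrays, at 3205, 5748 and 3059, with set B the brightest.

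**Figure D4:**
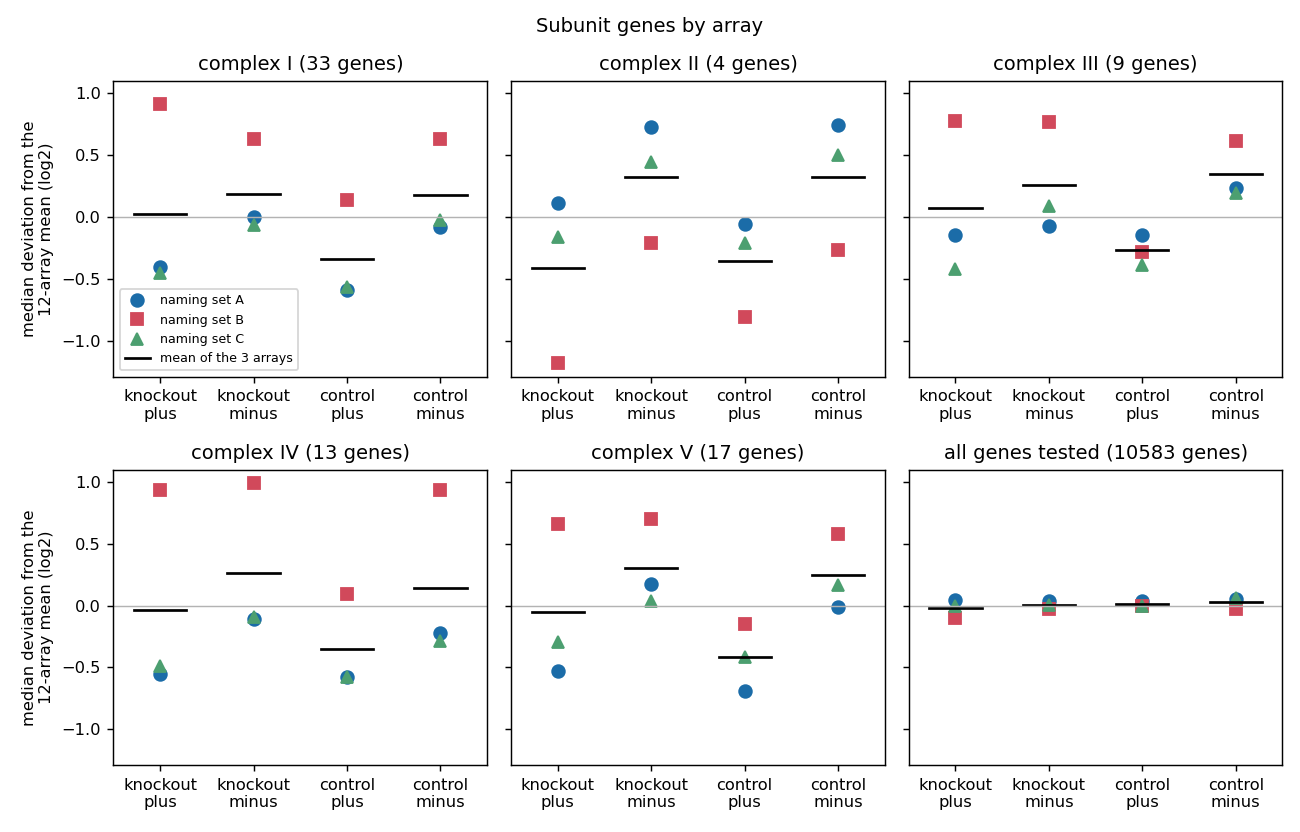
Median deviation of the genes of each complex, and of all genes tested, from their 12-array mean (log2, y axis) in each array, with knockout plus, knockout minus, control plus and control minus from left to right. Markers show the naming sets and bars the mean of the 3 arrays. Control plus arrays lie below control minus arrays of the same set in every complex shown, set B lies apart in most panels, and all genes tested stay near 0.

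Other genes of mitochondria and energy metabolism were read from lists written for this work. Of 27 genes of protein import and the inner membrane, 6 fell in knockouts and 10 in controls, with Chchd4, which oxidises imported proteins in the intermembrane space, at -0.74 ± 0.17 and -1.03 ± 0.17. Of 76 mitochondrial ribosomal protein genes, 10 fell in knockouts and 14 in controls, with Mrpl12 at -1.39 ± 0.19 and -1.13 ± 0.19. Of 23 genes of the tricarboxylic acid cycle and pyruvate dehydrogenase, 4 fell in knockouts and 7 in controls, with Idh2, the mitochondrial NADP-dependent isocitrate dehydrogenase, at -1.66 ± 0.19 and -1.60 ± 0.19. Over all genes tested, 9.72% were called lower in knockouts and 11.6% in controls. None of these 3 lists had a gene called higher, and their median log2 changes in controls were -0.63, -0.43 and -0.44.

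Assembly factors of the complexes, which build them without staying in them, fell in 6 of 44 cases in knockouts and 7 in controls, where 1 also rose, shares near the 9.72% and 11.6% of all genes called lower. Uqcc2, a complex III assembly factor, changed by -1.34 ± 0.21 in knockouts and -1.29 ± 0.21 in controls. Among 21 regulators of mitochondrial biogenesis, 3 fell in knockouts and 4 in controls, including the coactivators Ppargc1b, at -1.04 ± 0.29 and -1.17 ± 0.29, and Pprc1, at -0.83 ± 0.22 and -1.03 ± 0.22. Among 12 carriers and coupling factors, 2 fell in knockouts and 5 in controls, Prdx3, a mitochondrial peroxidase, in both. Glycolysis genes fell in 7 of 18 cases in knockouts and 8 in controls, with 1 called higher in each, and Slc16a1, a lactate and pyruvate transporter, changed by -1.59 ± 0.17 and -1.84 ± 0.17.

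Of the subunits encoded by mitochondrial DNA, 1 was read under a single symbol here, ND5 of complex I. It was not called, with log2 changes of 0.51 ± 0.20 in knockouts and 0.39 ± 0.20 in controls, and these were positive in all 3 sets of both genotypes.

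**Figure D5:**
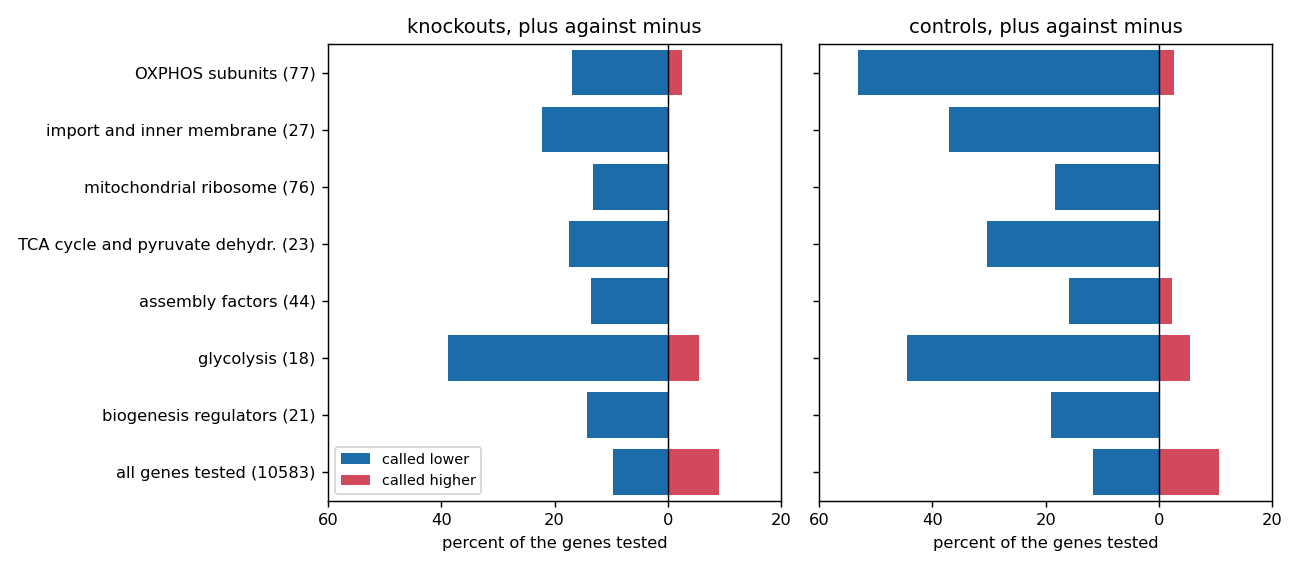
Percent of tested genes called lower (blue, left of 0) or higher (red, right of 0) in plus against minus arrays, in knockouts on the left and in controls on the right, for the subunit genes, 6 other lists and all genes tested, with the number tested in brackets. In controls the bar of the subunit genes reaches 53.2% lower, against 11.6% of all genes. In knockouts it reaches 16.9%, against 9.72%.

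Erythroid markers and a sign of RNA quality differed between plus and minus arrays as well, and markers of other cell types were counted beside them. Of 11 tested erythroid markers, 7 fell and 1 rose in knockouts and 6 fell and 1 rose in controls, and the summed signal of the 14 on the array was 7375 to 17754 in knockout plus, 17373 to 35379 in knockout minus, 13762 to 23533 in control plus and 19320 to 59671 in control minus arrays. Of 8 megakaryocyte markers tested 3 fell in knockouts and 2 in controls, of 13 neutrophil markers 2 and 2, and of 7 mast cell and basophil markers 2 and 1, with none higher. Of 11 stem and progenitor markers, 2 fell and 1 rose in knockouts and 2 fell and 2 rose in controls. Of 7 dendritic cell markers, 1 fell and 1 rose in knockouts and 1 rose in controls, and of 7 monocyte and macrophage markers 1 rose in each. No tested marker of B cells, T and NK cells or eosinophils was called, with 2, 3 and 1 tested. Over all genes, 9.72% were called lower and 9.03% higher in knockouts, and 11.6% lower and 10.6% higher in controls. Outside the erythroid list few markers were called in either direction, and no list was tested against these shares. Klf1, an erythroid transcription factor, changed by -2.43 ± 0.51 in knockouts and -2.02 ± 0.51 in controls. The beta-actin log2 ratio was higher in plus than in minus arrays of every set, by 0.24 to 1.63 in knockouts and 0.59 to 1.35 in controls. With this ratio as a covariate, 3 subunit genes were called in knockouts, all lower (3.9%, against 2.89% of all genes), and 21 in controls, 20 of them lower (26%, against 7.58%). The part of cell composition and RNA quality in the subunit changes was not tested beyond this.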

How the data were processed

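RNA was measured on 12 arrays, 3 in each of 4 groups taken from the titles. The authors deposited 1 linear intensity for each probe set and array, computed with MAS5 per the submitters' processing notes. Version and scaling target are not given in the sources used here. Each array's mean, trimmed by 2% at each end, was 500.0, and the scaling was left as it was. Precision is limited by the number of arrays, since arrays have no counting depth.

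Probe sets were named from the platform annotation. Those with 1 symbol (34958 of 45101) were used, 932 with several were not, and each gene took its brightest probe set. All 82 subunit genes matched GRCm38.p6 by gene ID. Signals became log2(signal + 32), and genes whose mean was under 6.76 (the median over all probe sets) were dropped. One limma 3.58.1 fit (R 4.3.3, eBayes with a trend) held the 4 groups and the naming set as a block, with 6 residual degrees of freedom. Tests were two-sided and adjusted by Benjamini-Hochberg over 10583 genes in each of 5 contrasts. The chain was tested on simulated data.

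The members, the other gene lists and the cell type markers were chosen with earlier results of these data known. Full values were given for the called genes with the largest changes, the gene with the smallest p in a complex or comparison, the paralog sets and Cycs. Other genes set beside these were named after their values were seen. Motifs were sought as exact letters on both strands of the RefSeq promoter windows. Alternatives covered scaling, pseudocount, filter, probe sets, block, each array and set left out, the array with conflicting labels, array weights, variance prior, the arrays in the fit and the beta-actin ratio.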

Additional observations from a re-analysis of the deposited data

How the results depend on the processing

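The counts of called subunit genes depended strongly on the block and on single arrays. No called gene changed direction under any setting run, though all settings reuse the arrays that chose these genes. In knockouts, 15 genes were called. This became 9 without the filter, 0 without the block (limma, where 9 subunit genes had an unadjusted p under 0.05 and 1.02% of all genes were still called lower), 6 with the conflicting array as a control, 6 with only the arrays compared in the fit, 3 with a covariate for the beta-actin ratio and 50 with array weights. Leaving out arrays or sets gave 1 to 39 calls. It was 9, 28 and 6 without the knockout plus array of set A, B or C, 8, 7 and 4 without the knockout minus array of these sets, and 2, 39 and 1 without the whole set. The share called lower was near that of all genes without set A (2.6% against 3.15%), without set C (1.3% against 1.37%), with the beta-actin ratio (3.9% against 2.89%), and without the knockout minus array of set B or C (5.19% each, against 4.4% and 4.09%).

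In controls, 43 genes were called. This became 25 without the filter, 2 without the block, 26 without a trend in the variance prior and 21 with the beta-actin ratio. Leaving out arrays or sets gave 4 to 56 calls: 27, 20 and 24 without the control plus array of set A, B or C, 17, 19 and 14 without the control minus array, 28 without the knockout minus array of set C, and 13 and 4 without the whole of set A or C. With fewer arrays the fit has fewer residual degrees of freedom, and without the whole of set B 53 genes were called. Why the counts moved was not tested. Cox7c and Cox6b2 stayed called in controls under all 28 and 27 settings in which they were tested, and Uqcr11 in 27 of 28.

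Centring each array on its median moved the median of all genes in controls to -0.22 and that of the subunit genes to -0.82, with 66.2% of subunit genes lower against 17.9% of all genes. The 3 comparisons of knockout with control gave 0 called subunit genes under every setting run (limma), with an unadjusted p under 0.05 for 0 to 5 genes in minus arrays, 3 to 37 in plus arrays and 0 to 7 for the difference of the effects. The titles carry no replicate numbers. No paired analysis was possible because the labels pair no arrays beyond the naming sets, which are already the block.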

Other observations

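Many subunit genes are read by more than 1 probe set. For 25 of the 41 genes called lower in controls, 40 further probe sets lay above the filter, and 36 of them had a negative change in controls. The 4 others belonged to Atp5g2, Atp5j2, Ndufb2 and Sdha, with changes of 1.09, 0.69, 0.79 and 1.06 on the log2 scale, and were dimmer than the probe sets used. For Sdha, another probe set changed by -0.80 in knockouts and -1.05 in controls. For 22 of the 34 genes not called in controls, 35 further probe sets lay above the filter, and 28 of them had a negative change in controls, over a range of -0.95 to 0.59. Among these were a probe set of Ndufb5 at -0.80 and 2 of Cox5a at -0.53 and -0.76. A dimmer probe set of Uqcrb changed by -0.72, against -0.12 for the one used. Of Atp5a1, 2 dimmer probe sets changed by -0.46 and -0.05, against -0.21 for the one used. These further probe sets were not tested on their own.

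Of the 77 tested genes, 12 were read by probe sets with the suffix s and 6 with the suffix x, which may read related sequences. Of these, 6 and 4 were called lower in controls, against 19 of 33 with the suffix a and 12 of 26 with a plain name. Among the 5 genes below the filter, Ndufb4, an accessory subunit of complex I, changed by -0.021 in knockouts and -0.77 in controls, at signals of 10.9 to 80.4 over the 12 arrays.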
